A study of Mus musculus with 9 samples.

Results

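Matrix metalloproteinases (MMPs) are zinc-dependent proteases that cut collagens, laminins and other proteins of the extracellular matrix, and tissue inhibitors of metalloproteinases (TIMPs) bind their active site and block them. Most MMPs are secreted as inactive precursors, while a membrane-anchored subgroup works at the cell surface and can activate others. In tumours both families are made by cancer cells and by fibroblasts, macrophages and neutrophils, so the cell of origin of a transcript matters for reading its level. The genes examined here were 8 of the 23799 genes in the deposited table, found by symbol: 5 proteases (Mmp14, Mmp2, Mmp3, Mmp9 and Mmp13) and 3 inhibitors (Timp1, Timp2 and Timp3). All 8 were found, and 7 passed the filter for testing, a level of 1 RPKM or more in 2 or more of the 9 libraries. Timp3 did not pass.

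RNA sequencing was done on 9 libraries of tumour cells sorted by fluorescence from orthotopic mouse models, as given in the labels. In the pancreatic ductal adenocarcinoma (PDAC) model, YFP-positive cells came from mice carrying p48-Cre with p53F/+ and the reporter ROSA-LSL-YFP, in which Cre from the p48 pancreatic driver recombines a floxed p53 allele and turns on the YFP reporter. It gave 2 liver metastases (numbers 1 and 5), 1 lung metastasis (number 1) and 2 primary tumours (numbers 1 and 5). All number 1 PDAC libraries were taken at 25.67 weeks and their label adds floxed SIRT6 alleles (SIRT6F/F). Both number 5 PDAC libraries were taken at 28.95 weeks without them, so age and SIRT6 genotype cannot be told apart from the number. In the breast cancer (BC) model, GFP-positive cells came from tumours of 4T1-eGFP, a labelled line of mouse mammary carcinoma, at 28 days: 2 lung metastases (numbers 4 and 6) and 2 primary tumours (numbers 1 and 5). All BC tumours thus descend from a single cell line. Values are RPKM, in which reads are divided by gene length and by the size of the library. Summed RPKM still differed between libraries, from 288171 in BC primary 5 to 992077 in PDAC liver metastasis 5. Levels set side by side between libraries carry that difference.

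The libraries differed in depth and in the cells they held. Reads on genes were estimated at 21300000 for the PDAC metastasis to lung and 127900000 for BC primary 5, the shallowest and deepest libraries, which listed 9530 and 20478 genes above 0. The share of all RPKM that fell on haemoglobin genes was 38.9% and 20% for PDAC liver metastases 1 and 5, 38.6% for the PDAC metastasis to lung, 10.9% for PDAC primary 1 and at most 0.107% for the other libraries. A list of 7 tumour epithelial genes, among them Epcam and the keratins Krt8 and Krt18, summed to 6660 and 239 RPKM in PDAC liver metastases 1 and 5 and to 132 RPKM in the PDAC metastasis to lung, against 2220 and 15900 RPKM in PDAC primaries 1 and 5. It summed to 4130 and 5750 RPKM in BC lung metastases 4 and 6, against 5570 and 2940 RPKM in BC primaries 1 and 5. Epithelial markers were thus lowest in PDAC liver metastasis 5 and the PDAC metastasis to lung. In these pooled cells, fewer cells of a type and less RNA per cell cannot be told apart.

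Across the 8 genes, Mmp3 was lower in every PDAC library than in every BC library, the metastases of each model had less Mmp14 than its primary tumours, and Mmp9 was higher in the PDAC metastases than in the PDAC primaries. None of these differences passed the test across all genes, an adjusted p under 0.05 by limma with Benjamini-Hochberg adjustment. The group with the highest mean level was BC primary for Mmp14, Mmp3, Mmp13 and Timp2, BC lung metastasis for Timp1, PDAC liver metastasis for Mmp9 and Mmp2, and PDAC metastasis to lung for Timp3.

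**Figure D1:**
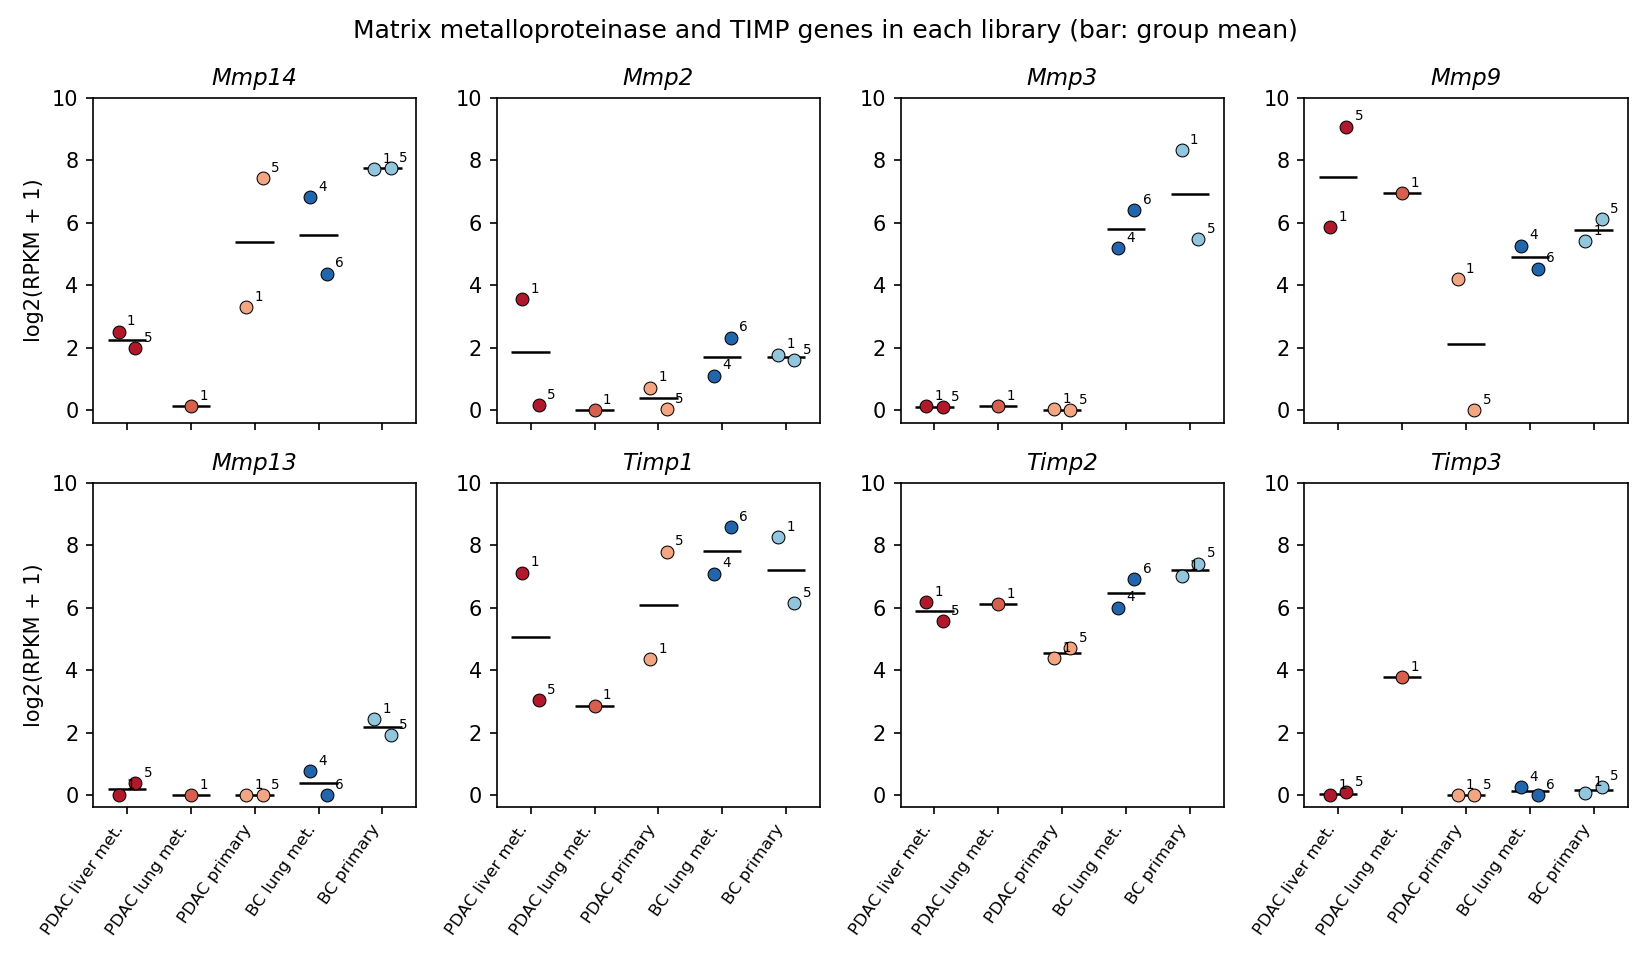
Level of each of the 8 genes, as log2(RPKM + 1) on the vertical axis, in the 5 groups on the horizontal axis. Each point is a library with its number and each bar a group mean; Mmp3 sits near 0 in all 5 PDAC libraries, and Mmp14 is lower in each metastasis than in both primaries of its model.

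Mmp3 encodes stromelysin 1, which cuts many matrix proteins and activates other MMP precursors, and Mmp13 encodes a collagenase of fibrillar collagen. The genes lie in a run of MMP genes on chromosome 9. The bases before their annotated starts are shown because these 2 proteases were at most at 0.298 RPKM in every PDAC library, with those of Mmp14 and Timp1, genes measured in every library, for comparison. The sequences are RefSeq's, on build GRCm38.p6, 120 bases ending just before the gene start and written along the gene's own strand. Capitals mark matches to the AP-1 motif (TGAGTCA or its reverse complement TGACTCA), to TATAAA (or TTTATA) and to the GC box GGGCGG (or CCGCCC).
Mmp3, chr9:7445702-7445821, plus strand: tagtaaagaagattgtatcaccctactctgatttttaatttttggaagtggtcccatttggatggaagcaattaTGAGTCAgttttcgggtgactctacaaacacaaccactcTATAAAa
Mmp13, chr9:7272394-7272513, plus strand: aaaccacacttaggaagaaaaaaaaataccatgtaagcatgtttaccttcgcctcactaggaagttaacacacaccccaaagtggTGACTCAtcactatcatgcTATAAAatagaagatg
Mmp14, chr14:54431478-54431597, plus strand: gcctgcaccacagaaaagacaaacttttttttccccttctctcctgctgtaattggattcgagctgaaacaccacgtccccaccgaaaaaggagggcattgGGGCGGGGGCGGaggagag
Timp1, chrX:20870046-20870165, plus strand: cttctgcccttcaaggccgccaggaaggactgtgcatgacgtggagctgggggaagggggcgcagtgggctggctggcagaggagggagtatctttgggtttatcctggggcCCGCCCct
Both Mmp3 and Mmp13 hold an AP-1 match, 46 to 40 and 35 to 29 bases before the start, and a TATAAA match. Neither Mmp14 nor Timp1 holds either of these 2 motifs within 250 bases before the start, and both hold the GC box. Of 32841 mouse promoters of the same 250 bases, 4.46% held the AP-1 motif, 12.4% the TATAAA motif and 32.7% the GC box, on either strand. RefSeq promoters were matched for 6 of the 8 genes. Those of Timp2 and Timp3 likewise held a GC box match and neither of the other motifs. A match is a run of letters and does not show that a factor binds there.

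Mmp3 was at 0.0965 and 0.0612 RPKM in PDAC liver metastases 1 and 5, at 0.0871 RPKM in the PDAC metastasis to lung, at 0.0118 RPKM in PDAC primary 1, and listed at 0 in PDAC primary 5. BC lung metastases 4 and 6 had 35.6 and 83.6 RPKM, against 324 and 43.8 RPKM in BC primaries 1 and 5. Every PDAC library lay below every BC library. The PDAC values correspond to about 3, 4, 2, 1 and 0 reads in the order given, as estimated from the RPKM, the exonic length of the gene and the step that 1 read makes in each library. Mmp3 was the only one of the 7 tested genes whose 5 PDAC libraries all lay below the 4 BC libraries. Of all 12832 genes tested, 6.23% did so. Between the primaries, PDAC minus BC, the log2 difference was -6.91 ± 1.22 (SE, n = 2 against 2; limma adjusted p = 0.134), which did not pass. It was -6.91 without PDAC primary 1 and -6.90 without PDAC primary 5, fits that each leave 1 PDAC primary.

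Within BC, lung metastases and primaries overlapped in Mmp3, since BC primary 5 lay between the 2 metastases. The log2 difference of lung metastases from primaries was -1.12 ± 1.22 (limma adjusted p = 0.974), and it was 0.31 without BC primary 1. At its highest, in BC primary 1, Mmp3 lay above 99.2% of the genes with a value above 0.

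Mmp13 was listed at 0 in PDAC liver metastasis 1, the PDAC metastasis to lung and both PDAC primaries, and was at 0.298 RPKM in PDAC liver metastasis 5. It was at 0.706 RPKM in BC lung metastasis 4 and listed at 0 in BC lung metastasis 6, against 4.37 and 2.79 RPKM in BC primaries 1 and 5. Both BC metastases lay below both BC primaries, with a log2 difference of -1.79 ± 0.58 (SE, n = 2 against 2; limma adjusted p = 0.974, unadjusted p = 0.0108). Of the 12832 genes tested, 1.18% were lower at an unadjusted p under 0.05 in this comparison. BC lung metastasis 6, the library without Mmp13, listed 10938 genes above 0, against 18665 in BC lung metastasis 4. Between the primaries, PDAC minus BC, the difference was -2.17 ± 0.58 (adjusted p = 0.2).

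The neighbours of Mmp3 and Mmp13 on chromosome 9 did not share a single pattern. All 10 genes from the first to the last MMP gene there are MMP genes in the GENCODE M21 annotation, and 9 of them were in the table. Mmp10, stromelysin 2, was listed at 0 or at 0.0124 RPKM in the PDAC libraries and had 3.10 and 0.0249 RPKM in lung metastases 4 and 6 of BC, against 12.9 and 2.49 RPKM in BC primaries 1 and 5. Mmp1a, an interstitial collagenase gene, was listed at 0 in the PDAC libraries and reached 2.14 RPKM in BC primary 1. These 2 genes thus also had their highest values in BC primary 1.

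Mmp8, the collagenase stored in neutrophil granules, lies in the same run and differed from them. It was at 47.7 and 1320 RPKM in PDAC liver metastases 1 and 5 and 185 RPKM in the PDAC metastasis to lung, against 20.4 and 0.039 RPKM in PDAC primaries 1 and 5, and it was at 0.148 to 11.4 RPKM in BC lung metastases and at most 0.151 RPKM in BC primaries. Mmp7, matrilysin, an MMP of glandular epithelium, was at 302 RPKM in PDAC primary 5 and at 13.9 RPKM in PDAC liver metastasis 5, and at most at 2.32 RPKM in the other libraries. Mmp12, the macrophage elastase, reached 16.4 RPKM in PDAC liver metastasis 1.

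**Figure D2:**
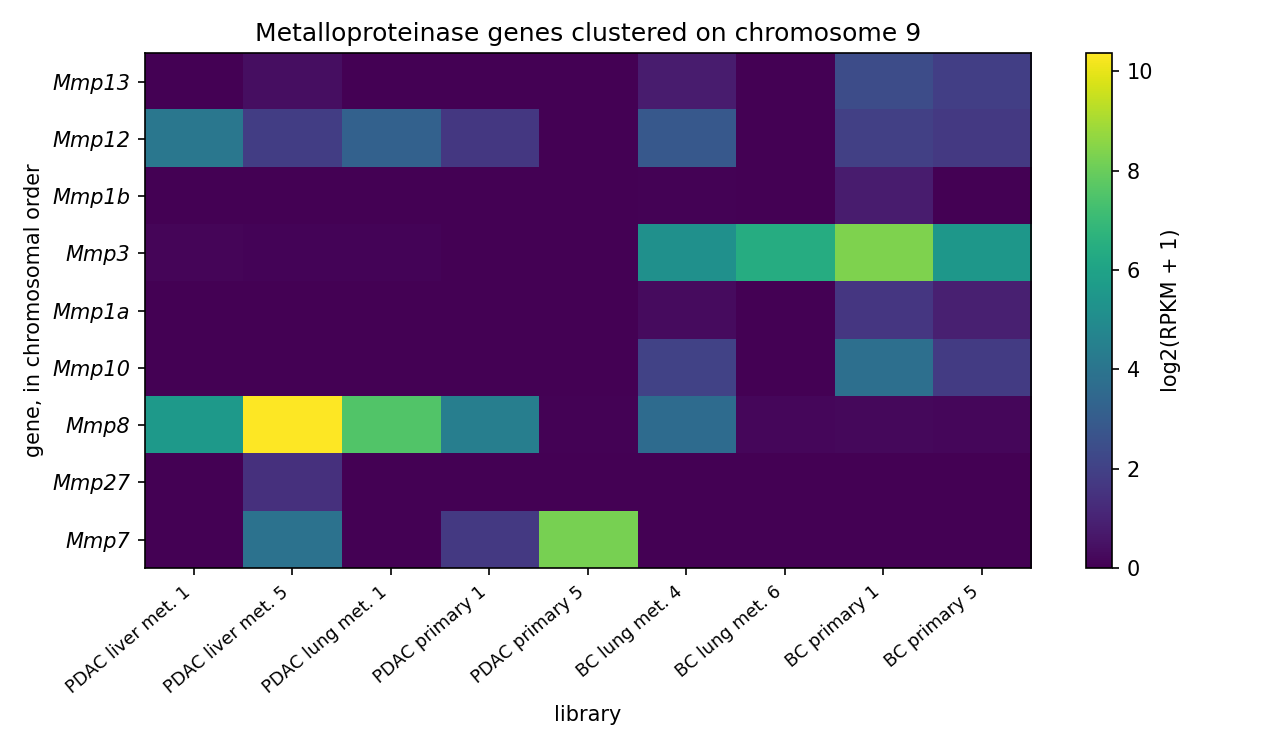
Heat map of log2(RPKM + 1) for the 9 measured MMP genes of chromosome 9, in chromosomal order down the page, in the 9 libraries across. Mmp3 is high in the 4 BC libraries, Mmp8 in the 3 PDAC metastases and Mmp7 in PDAC primary 5.

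Mmp14 encodes the membrane-anchored collagenase MT1-MMP, which sits on the cell surface and converts the precursor of MMP2 to its active form. It was at 4.70 and 2.98 RPKM in PDAC liver metastases 1 and 5 and at 0.0904 RPKM, about 6.88 reads, in the PDAC metastasis to lung, against 8.93 and 172 RPKM in PDAC primaries 1 and 5. In BC it was at 112 and 19.6 RPKM in lung metastases 4 and 6, against 211 and 215 RPKM in primaries 1 and 5. Each metastasis lay below both primaries of its model, with no overlap in either. Of all genes tested, 27.0% did so for BC lung, 10.2% for PDAC liver and 34.4% for PDAC lung. The share that did so in all of these was not counted. The margin was small in PDAC, where liver metastasis 1 and primary 1 were at 4.70 and 8.93 RPKM.

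The log2 difference of Mmp14 was -3.12 ± 1.32 for PDAC liver metastasis minus primary (SE, n = 2 against 2; limma adjusted p = 0.744), -5.25 ± 1.62 for PDAC lung metastasis minus primary (n = 1 against 2; adjusted p = 0.185) and -2.15 ± 1.32 for BC lung metastasis minus primary (adjusted p = 0.974). Over both models, with the model as a covariate, it was -3.06 ± 0.94 (n = 5 against 4; adjusted p = 0.853, unadjusted p = 0.00634). Of all genes, 2.70% were lower at an unadjusted p under 0.05 in that comparison, and of the 7 tested members Mmp14 was the only one. None passed the adjustment. Without PDAC primary 1, which leaves primary 5 as the only PDAC primary, the PDAC differences were -5.18 for liver and -7.31 for lung. The lung value then set lung metastasis 1 against primary 5 alone. These 2 libraries also differ in age and SIRT6 label, so site cannot be told apart from those. PDAC primary 5 had the highest summed epithelial markers of all libraries, and the share of that in the Mmp14 difference was not tested.

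Mmp2 encodes gelatinase A, which cuts denatured and basement membrane collagen and is mostly made by mesenchymal cells. It was at 10.7 and 0.127 RPKM in PDAC liver metastases 1 and 5 and listed at 0 in the PDAC metastasis to lung, against 0.643 and 0.021 RPKM in PDAC primaries 1 and 5. Its levels were 1.14 and 3.98 RPKM in BC lung metastases 4 and 6, against 2.44 and 2.02 RPKM in BC primaries 1 and 5. The groups overlapped in both models except for the lung metastasis, and PDAC liver metastasis 1 alone was above 4 RPKM. Differences were 1.49 ± 1.12 for PDAC liver minus primary (limma adjusted p = 0.88) and 0.02 ± 1.12 for BC lung minus primary (adjusted p = 1). The PDAC liver difference was -0.20 without liver metastasis 1, and the BC difference was -0.37 when libraries were rescaled to a common sum without haemoglobin.

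Mmp9 encodes gelatinase B, an MMP stored in neutrophil granules and also made by macrophages and tumour cells. It was at 57.4 and 541 RPKM in PDAC liver metastases 1 and 5 and 122 RPKM in the PDAC metastasis to lung, against 17.4 and 0.00902 RPKM in PDAC primaries 1 and 5. The value in PDAC primary 5 corresponds to about 1 read, in a library with 40200000 estimated reads on genes. All 3 PDAC metastases lay above both PDAC primaries. In BC it was at 37.6 and 22.1 RPKM in lung metastases 4 and 6, against 41.9 and 69.1 RPKM in primaries 1 and 5, and both metastases lay below both primaries.

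The log2 difference of Mmp9 was 5.37 ± 1.38 for PDAC liver minus primary (SE, n = 2 against 2; limma adjusted p = 0.338) and 4.84 ± 1.69 for PDAC lung minus primary (n = 1 against 2; adjusted p = 0.241). At an unadjusted p under 0.05, 4.89% and 5.78% of all genes were higher in these comparisons. Without PDAC primary 1 the differences were 7.46 and 6.93. The only PDAC primary left was then primary 5, with about 1 read of Mmp9. In BC the difference was -0.88 ± 1.38 (adjusted p = 0.992). Between primaries, PDAC minus BC, it was -3.67 ± 1.38 (adjusted p = 0.307), and -5.76 without PDAC primary 1. The PDAC liver effect minus the BC lung effect was 6.24 ± 1.95 (limma adjusted p = 0.874), so a difference between the 2 effects was not established. Tumour model and site of metastasis cannot be told apart in this contrast.

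Summed neutrophil and macrophage markers were higher in the PDAC metastases than in the PDAC primaries, as Mmp9 was. The 12 neutrophil genes examined summed to 8850 and 220000 RPKM in PDAC liver metastases 1 and 5 and 21300 RPKM in the PDAC metastasis to lung, against 1340 and 707 RPKM in PDAC primaries 1 and 5. In PDAC primary 5 nearly all of that sum was Ltf (352 RPKM) and Lcn2 (340 RPKM), while S100a8 and S100a9 were at 9.28 and 2.39 RPKM there and at 609 and 323 RPKM in PDAC primary 1. The 9 macrophage genes summed to 10600 and 13500 RPKM in the liver metastases and 13500 RPKM in the lung metastasis, against 2280 and 861 RPKM in the primaries. Of the neutrophil genes, 11 were positive and 1 negative for PDAC liver minus primary, and 8 positive and 4 negative for PDAC lung minus primary. All 9 macrophage genes were positive in both. For the 8 lymphocyte genes examined, the sums of the PDAC metastases lay between those of the 2 PDAC primaries. They were 5760 and 9770 RPKM in the liver metastases and 2920 RPKM in the lung metastasis. Primaries 1 and 5 had 31500 and 2.01 RPKM, and Igkc alone was at 27900 RPKM in primary 1. Counted by gene, 5 lymphocyte genes were positive and 3 negative in both PDAC comparisons. All 6 erythroid genes were positive in both, so higher values beside Mmp9 were not limited to neutrophil and macrophage genes. Of all genes, 53.9% were positive for PDAC liver and 35.1% for PDAC lung. In BC the neutrophil sum was 2730 and 1700 RPKM in lung metastases 4 and 6, against 60.9 and 77.9 RPKM in primaries 1 and 5, while Mmp9 was lower in those metastases. The BC macrophage sum was 412 and 224 RPKM in lung metastases, against 273 and 416 RPKM in primaries. At least 10 of the 12 neutrophil genes and 7 of the 9 macrophage genes were above 0 in every library. At 0 were Csf3r, Cxcr2, Csf1r and Mrc1 in PDAC primary 5, Mpo, Elane, Csf1r and Mrc1 in BC lung metastasis 6, and Mpo in PDAC liver metastasis 1. The part of these cells in the Mmp9 values was not tested. The only marker gene called between PDAC liver metastases and primaries was the hepatocyte gene Apoa2, at 424 and 517 RPKM in liver metastases 1 and 5, against 0.0791 and 0.0594 RPKM in primaries 1 and 5 (log2 difference 8.78, limma adjusted p = 0.0425, n = 2 against 2).

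**Figure D3:**
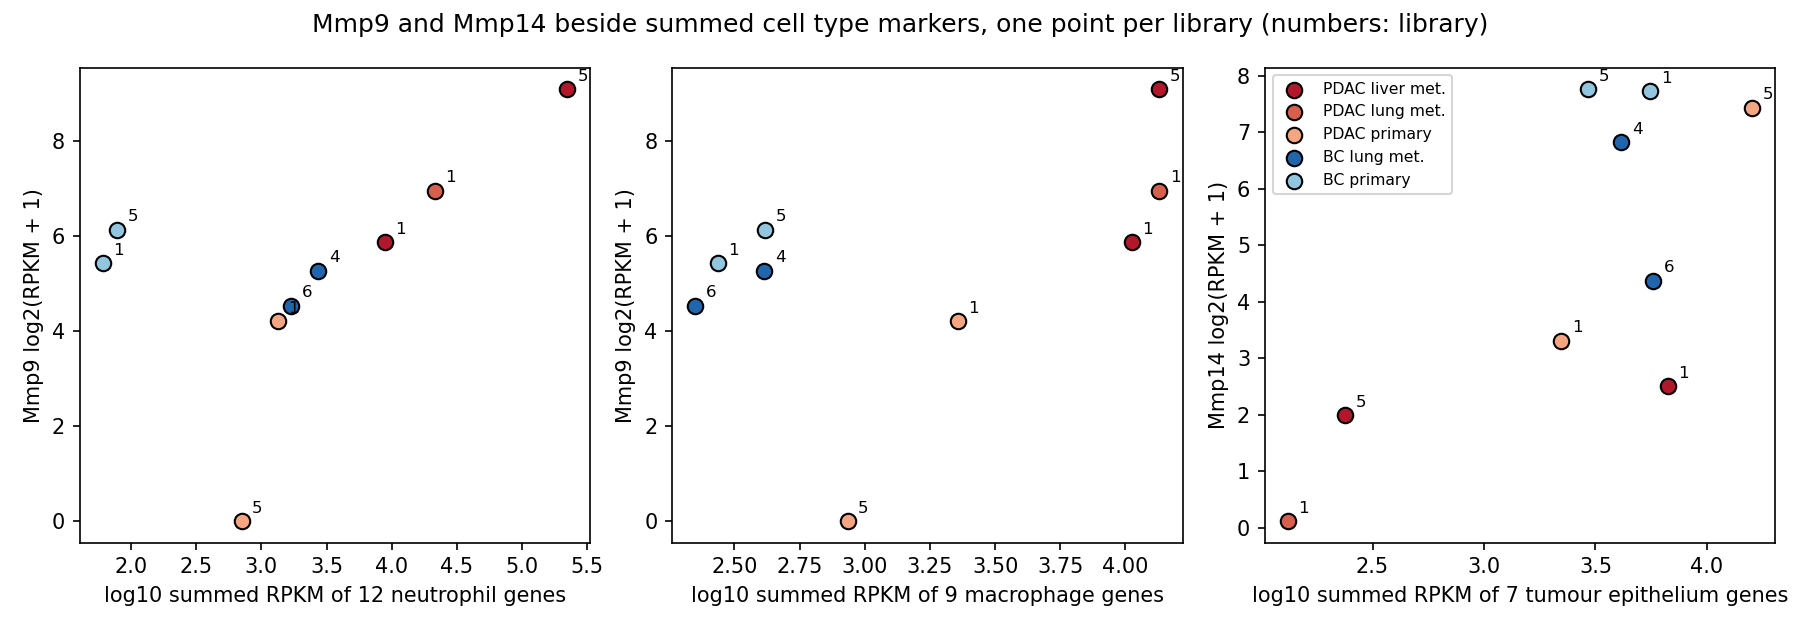
Levels of Mmp9 (left and middle panels) and Mmp14 (right panel) as log2(RPKM + 1) against the log10 summed RPKM of neutrophil, macrophage and tumour epithelial marker genes, with a point per library labelled by its number. The 3 PDAC metastases lie to the right of the PDAC primaries in the leukocyte panels, while the BC primaries have Mmp9 at 41.9 and 69.1 RPKM with neutrophil sums of 60.9 and 77.9 RPKM.

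Timp1 encodes a secreted inhibitor of most MMPs that also binds the MMP9 precursor. It was at 138 and 7.15 RPKM in PDAC liver metastases 1 and 5 and 6.26 RPKM in the PDAC metastasis to lung, against 19.4 and 221 RPKM in PDAC primaries 1 and 5. Its levels were 136 and 379 RPKM in BC lung metastases 4 and 6, against 304 and 69.7 RPKM in BC primaries 1 and 5. Within each of the 4 groups with 2 libraries the libraries differed widely and overlapped those of the group it was compared with. Only the lung metastasis lay below both PDAC primaries. The differences were -1.0 ± 1.45 for PDAC liver minus primary (limma adjusted p = 0.961), -3.21 ± 1.78 for PDAC lung minus primary (adjusted p = 0.481) and 0.63 ± 1.45 for BC lung minus primary (adjusted p = 1). The PDAC liver difference was 1.04 without liver metastasis 5 and 0.72 without primary 5, and the BC difference was -0.10 without lung metastasis 6 and -0.42 without primary 5.

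Timp2 encodes an inhibitor that, besides blocking MMPs, forms a bridge between MT1-MMP and the MMP2 precursor at the cell surface. It was above 0 in every library, and its highest level stood closer to its lowest, as a ratio, than for any of the other members. It was at 71.8 and 46.4 RPKM in PDAC liver metastases 1 and 5 and 68.1 RPKM in the PDAC metastasis to lung, against 20 and 25.2 RPKM in PDAC primaries 1 and 5. In BC it was at 63.1 and 120 RPKM in lung metastases 4 and 6, against 128 and 169 RPKM in primaries 1 and 5. As for Mmp9, the PDAC metastases lay above their primaries and the BC metastases below theirs, without overlap.

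The Timp2 difference was 1.32 ± 0.68 for PDAC liver minus primary (limma adjusted p = 0.837), 1.56 ± 0.83 for PDAC lung minus primary (adjusted p = 0.457) and -0.75 ± 0.68 for BC lung minus primary (adjusted p = 0.974). The PDAC liver effect minus the BC lung effect was 2.08 ± 0.95 (adjusted p = 0.874). Between primaries, PDAC minus BC, it was -2.66 ± 0.68 (adjusted p = 0.19). None passed.

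Timp3, whose product is held in the matrix, was at 12.8 RPKM in the PDAC metastasis to lung and at most 0.203 RPKM in the other 8 libraries. It was listed at 0 in PDAC liver metastasis 1, at 0.0608 RPKM in PDAC liver metastasis 5 and listed at 0 in both PDAC primaries. BC lung metastasis 4 had 0.19 RPKM and BC lung metastasis 6 was listed at 0, against 0.0469 and 0.203 RPKM in BC primaries 1 and 5. The value of 12.8 RPKM corresponds to about 1330 reads, and with no filter on low values the log2 difference of the lung metastasis from the PDAC primaries was 3.78 and passed (limma adjusted p = 0.00962, n = 1 against 2). Timp4, the remaining member of the inhibitor family, was likewise at 39.5 RPKM in the PDAC metastasis to lung and at most 0.233 RPKM elsewhere. In that library 5 lung epithelial genes, led by the surfactant gene Sftpc, summed to 35900 RPKM, 7 endothelial genes to 333 RPKM, of which 302 RPKM were Cldn5 and the others at 0.824 to 10.1 RPKM each, and 10 fibroblast genes to 192 RPKM, of which Dcn and Acta2 made up nearly all while 7 of the 10, Pdgfra, Pdgfrb and Col1a2 among them, were at 0. The same lists summed to at most 28.8, 12.3 and 193 RPKM in the other libraries, where 193 RPKM for fibroblast genes was that of BC lung metastasis 6. Of these genes Sftpc, Scgb1a1 and Cldn5 rose in the lung metastasis against the PDAC primaries, with log2 differences of 14.39, 6.52 and 8.24 (limma adjusted p = 0.025, 0.0446 and 0.0335; n = 1 against 2). The part of these cells in the Timp3 value was not tested.

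Each of the 3 inhibitors overlaps another gene. In the GENCODE M21 annotation Timp1 overlaps Syn1 and Timp3 overlaps Syn3, both on the opposite strand, and Timp2 overlaps Cep295nl on its own strand. The library kit does not mark strand. These partners were at most at 0.155, 0.759 and 1.11 RPKM in any library, and Syn3 was listed at 0 in the PDAC metastasis to lung. In PDAC liver metastasis 1 Syn3 was at 0.759 RPKM and Timp3 was listed at 0. The part of shared reads in the inhibitor values was not tested. No overlapping gene was annotated for the 5 proteases.

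The balance of the listed proteases and inhibitors was described by summing RPKM within each set. The 5 MMPs summed to 72.9 and 545 RPKM in PDAC liver metastases 1 and 5 and 123 RPKM in the PDAC metastasis to lung, against 27.0 and 172 RPKM in PDAC primaries 1 and 5. They summed to 187 and 129 RPKM in BC lung metastases 4 and 6, against 584 and 333 RPKM in BC primaries 1 and 5. The 3 TIMPs summed to 210 and 53.6 RPKM in PDAC liver metastases, 87.1 RPKM in the PDAC metastasis to lung, and 39.5 and 246 RPKM in PDAC primaries. In BC they summed to 199 and 499 RPKM in lung metastases and to 432 and 239 RPKM in primaries.

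TIMP sum over MMP sum was 2.87 and 0.0984 for PDAC liver metastases 1 and 5 and 0.71 for the PDAC metastasis to lung, against 1.46 and 1.44 in PDAC primaries. This ratio was 1.06 and 3.86 in BC lung metastases 4 and 6, against 0.741 and 0.717 in BC primaries. It was thus above that of both primaries in both BC metastases, while the PDAC liver metastases lay on either side of their primaries. Among the 5 MMPs examined, the leading protease differed by library. Mmp9 made up 78.7%, 99.4% and 99.9% of the MMP sum in PDAC liver metastases 1 and 5 and the lung metastasis, and 64.4% in PDAC primary 1. Mmp14 led in PDAC primary 5 and, with 60.0% and 64.7%, in BC lung metastasis 4 and BC primary 5. Mmp3 led with 64.7% and 55.5% in BC lung metastasis 6 and BC primary 1. The sums and ratios leave out other MMPs, some of which were higher than any of those examined. Mmp7 was so in PDAC primary 5, at 302 RPKM. Mmp8 was so in PDAC liver metastasis 5 (1320 RPKM), the PDAC metastasis to lung (185 RPKM) and PDAC primary 1 (20.4 RPKM).

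**Figure D4:**
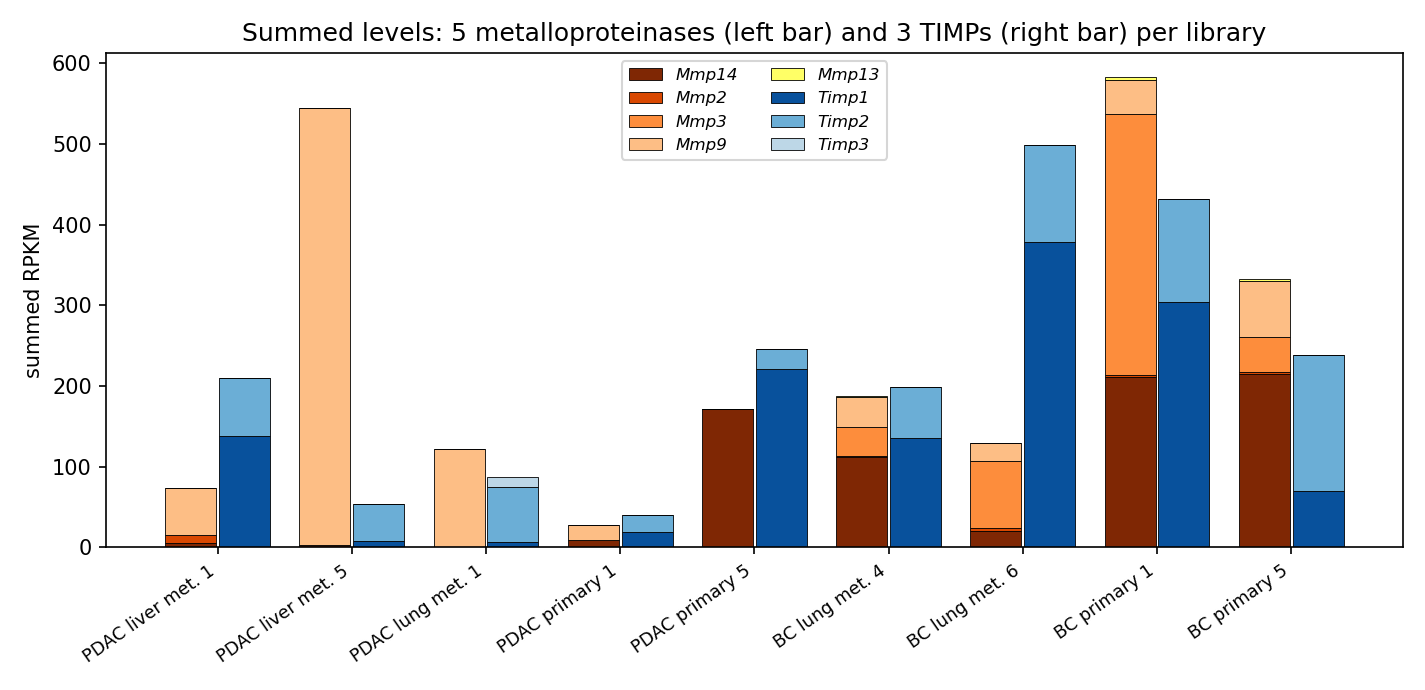
Summed RPKM per library of the 5 MMP genes (left bar of each pair) and the 3 TIMP genes (right bar), stacked by gene. Mmp9 fills most of the MMP bar in the PDAC metastases, and Mmp14 and Mmp3 fill most of it in the BC libraries.

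Within a group, the order of the genes was only partly separated. In PDAC liver metastases the mean order was Mmp9, Timp1, Timp2, Mmp2, Mmp14, Mmp13, Mmp3 and Timp3, in which neighbours were separated only between Timp2 and Mmp2, Mmp14 and Mmp13, and Mmp3 and Timp3. For PDAC primaries it was Timp1, Mmp14, Timp2, Mmp9, Mmp2 and Mmp3, followed by Mmp13 and Timp3, both listed at 0, with separation only between Timp2 and Mmp9 and between Mmp2 and Mmp3. For BC lung metastases it was Timp1, Timp2, Mmp14, Mmp3, Mmp9, Mmp2, Mmp13 and Timp3, with overlap from Timp2 to Mmp9 and between Mmp13 and Timp3. In BC primaries Mmp14, Timp1, Mmp3 and Timp2 overlapped in that order at means of 213 to 149 RPKM, and Mmp9, Mmp13, Mmp2 and Timp3 followed, each separated from the next.

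Over the 7 tested genes, 0 were called in PDAC liver metastasis minus primary, where 0.00779% of all genes were called. The count was also 0 in PDAC lung metastasis minus primary (background 0.584%), BC lung metastasis minus primary (background 0%), metastasis minus primary over both models (background 0.00779%), PDAC minus BC primary (background 0.0312%) and the difference of the 2 metastasis effects (background 0%). At an unadjusted p under 0.05, 2 of 7 were called in the PDAC liver comparison (Mmp9 and Mmp14; background 6.4%, of which 1.5% were lower), 2 in the PDAC lung comparison (the same genes; 13.8%, of which 7.97% were lower), 1 in BC (Mmp13; 2.07%), 1 over both models (Mmp14; 4.89%), 4 between primaries (Mmp3, Mmp9, Mmp13 and Timp2, all lower in PDAC; background of lower genes 9.43%) and 2 in the difference of effects (Mmp9 and Mmp13, both higher; 4.13%, of which 3.34% were higher). The PDAC liver, PDAC lung and PDAC against BC comparisons share the same 2 PDAC primaries.

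Median log2 differences of the 7 genes were 0.19 in the PDAC liver comparison (5 positive and 2 negative; median of all genes 0.08, 53.9% positive), 0.00 in the PDAC lung comparison (3 positive, 3 negative, Mmp13 listed at 0 throughout; all genes -0.50, 35.1% positive), -0.88 in BC (2 positive and 5 negative; all genes -0.29, 35.6% positive) and -2.37 between primaries (0 positive and 7 negative; all genes -0.31, 41.3% positive). In BC, 4 of the 7 genes (Mmp14, Mmp9, Mmp13 and Timp2) had metastases below primaries without overlap, as did 27% of all genes. Between primaries, 6 of 7 had PDAC below BC without overlap, all but Timp1, as did 31.5% of all genes. In the PDAC liver comparison 3 lay above without overlap (Mmp3, Mmp9 and Timp2; background 15.4%) and 1 below (Mmp14; background 10.2%). For the lung metastasis of PDAC the same 3 genes lay above both primaries (background 23.9%) and Mmp14, Mmp2 and Timp1 below them (background 34.4%). In these counts Mmp3 rested on about 4 reads or fewer in each PDAC library. Mmp2 was listed at 0 in the lung metastasis, against about 2.22 reads in PDAC primary 5.

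**Figure D5:**
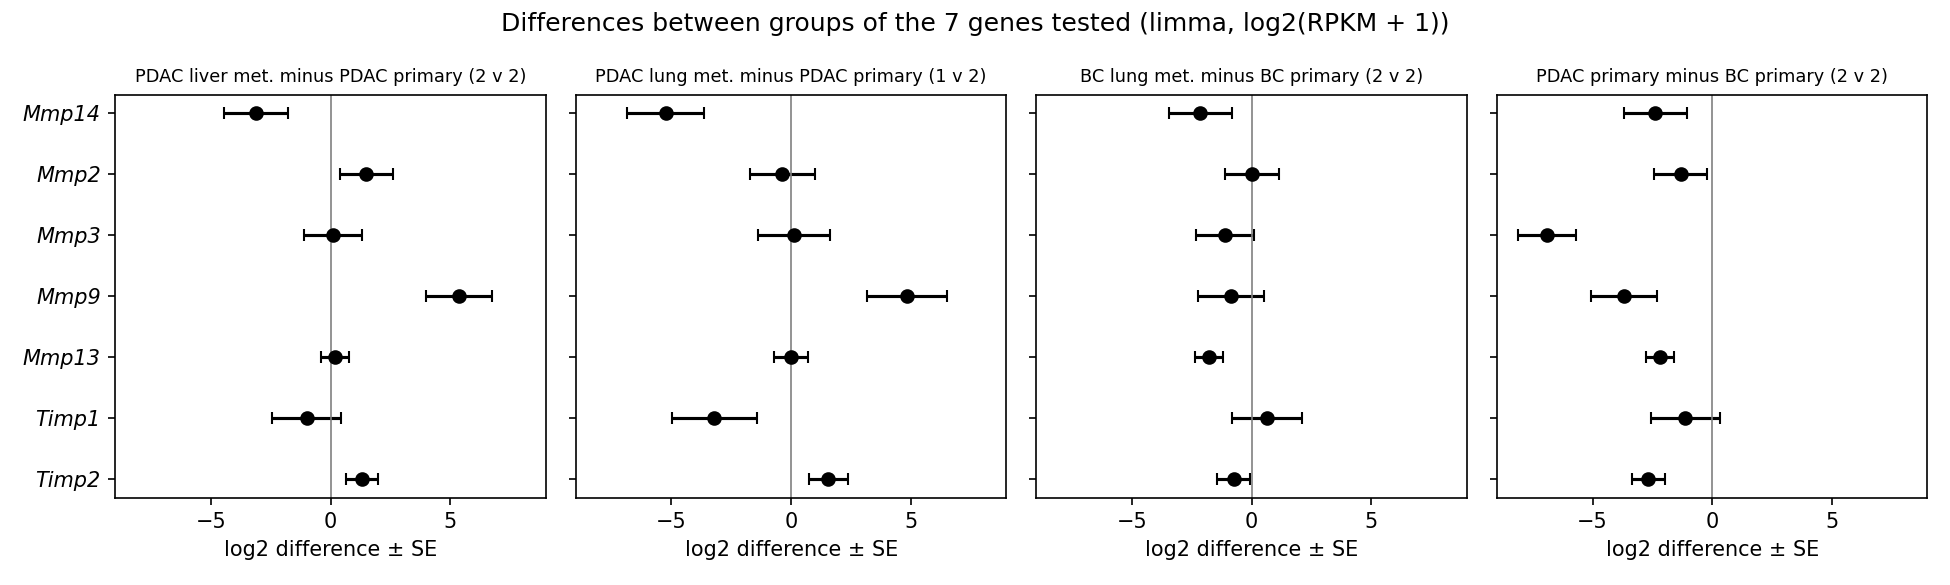
Log2 differences on the log2(RPKM + 1) scale, with standard errors, of the 7 tested genes in 4 comparisons. The 4 differences farthest from 0 are Mmp3 between PDAC and BC primaries (-6.91), Mmp9 for PDAC liver (5.37) and PDAC lung (4.84) and Mmp14 for PDAC lung (-5.25); none passed adjustment over all genes.

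Other genes of pericellular proteolysis were read from lists of 16 further MMPs, 8 other inhibitors and cofactors, 12 genes of plasminogen activation, 15 ADAM and ADAMTS proteases and 13 matrix substrates, counting those in the table. Of these, 8, 6, 11, 9 and 11 were tested, and 0 were called in either direction in any of the 6 comparisons. The 9 tested ADAM and ADAMTS genes were all negative for PDAC minus BC primaries (median -2.44; all genes -0.31), where 41.3% of all genes were positive. Of these, 8 of 9 were negative for BC lung metastasis minus primary (median -1.14; all genes -0.29), where 35.6% of all genes were positive. Of the 11 matrix substrate genes, 10 were negative in BC (median -0.58; 35.6% of all genes positive) and 6 were positive in the PDAC liver comparison (median 0.45; all genes 0.08), near the 53.9% of all genes that were positive there.

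The genes of these lists with the highest mean levels were chiefly surface and adaptor proteins. Plaur, the urokinase receptor, was at 892 and 2210 RPKM in PDAC liver metastases 1 and 5 and 2110 RPKM in the PDAC metastasis to lung, against 293 and 1100 RPKM in PDAC primaries 1 and 5. Its BC levels were 141 and 194 RPKM in lung metastases, against 328 and 105 RPKM in BC primaries. Anxa2 and S100a10, which together bind plasminogen at the cell surface, ranged from 194 to 1520 RPKM and from 168 to 2000 RPKM over the libraries. Bsg, basigin or EMMPRIN, an inducer of MMP synthesis, ranged from 333 to 1400 RPKM. Lcn2, whose product forms a complex with MMP9 and is abundant in neutrophils, was at 128 and 3180 RPKM in PDAC liver metastases 1 and 5 and 214 RPKM in the PDAC metastasis to lung, against 44.6 and 340 RPKM in PDAC primaries.

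Sparc, a matricellular protein, ranged from 5.24 RPKM in PDAC primary 1 to 312 RPKM in BC lung metastasis 6. Among the further MMPs, Mmp8, Mmp7 and Mmp11, a stromelysin usually made by stromal fibroblasts, had the highest means. Mmp11 was at most at 0.145 RPKM in PDAC metastases, against 5.69 RPKM and listed at 0 in PDAC primaries 1 and 5, and was at 10.4 RPKM and listed at 0 in BC lung metastases, against 22.6 and 18.2 RPKM in BC primaries. The ADAM genes with the highest means were Adam8, Adam15 and Adam10, membrane proteases that shed surface proteins. Adam8 was at 20.5 and 83.2 RPKM in PDAC liver metastases and 29.6 RPKM in the PDAC metastasis to lung, against 3.54 and 0.482 RPKM in PDAC primaries, and 10.0 and 23.5 RPKM in lung metastases of BC, against 25.4 and 7.81 RPKM in BC primaries. Among substrates, Fn1, fibronectin, reached 115 RPKM in PDAC primary 5 and 198 RPKM in BC primary 5, and Dcn, decorin, reached 103 RPKM in the PDAC metastasis to lung.

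The genes whose levels followed each member most closely were found by Pearson's correlation of log2(RPKM + 1) over the 9 libraries among 8594 genes, as a description. Closest to Mmp14 were Bmp1 (r = 0.976), a metalloproteinase of collagen maturation, Ltbp3 (0.967) and Sema3b (0.966). For Mmp3 they were Dusp9 (0.993), the forkhead factor gene Foxc2 (0.978) and Csgalnact1 (0.976). Foxc2 was listed at 0 in all 5 PDAC libraries and was at 16.5 to 27.7 RPKM in BC. For Mmp13 they were Adamts8 (0.987), a secreted metalloproteinase, Ephb6 (0.987) and Matn2 (0.983), a matrix protein gene.

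Pla2g7, a secreted phospholipase of macrophages, was among the 3 closest to Mmp9 (0.956), after Ubp1 (0.966) and Agtrap (0.959). For Timp1 they were Steap1 (0.978), Ptov1 (0.967) and Prdx4 (0.964). Timp2 was followed less closely, by Pppde1 (0.919), Usp22 (0.891) and the mesenchymal filament gene Vim (0.885), and Mmp2 by Spin2 (0.958), Gamt (0.905) and Ube2k (0.904). The 9 points come from 2 models and from libraries of unequal depth, and no test was made.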

How the data were processed

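The values deposited by the authors were read as RPKM although the table is named for CPM: its columns do not sum to a common total, and low values times exonic length (GENCODE M21) were whole multiples of 1 step per library, within 0.02, for 62.8 to 74.4% of values under 20 reads, against 4.8 to 5.8% without length. Per the labels' protocols, cDNA was made with SMART-seq v4 and libraries with Nextera XT; per the submitters' processing notes the genome was mm9, and which aligner, counter and annotation were applied is not given in the sources used here. Printed promoter sequences are on GRCm38.p6, a later build, and no values were read by coordinate. Estimated reads on genes were 21300000 to 127900000 per library.

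Of 23799 genes, 12832 that reached 1 RPKM in 2 or more libraries were tested on log2(RPKM + 1), a scale that understates changes of low genes, with limma 3.58.1 in R 4.3.3 (trend, robust), two-sided, Benjamini-Hochberg over all genes, called at 0.05. Group means of all 9 libraries were fitted together for 5 comparisons (residual df 4), and the sixth used site and model as additive terms (residual df 6). The spread of the unreplicated PDAC lung metastasis was taken from the other groups. The procedure was run on simulated data with independent normal noise and large changes set in BC lung metastases only. That run does not test smaller changes, unequal depth or the unreplicated PDAC lung metastasis. The members and gene lists were chosen with earlier results of these data known. Named genes were the members, any called gene of a list and, from the 5 lists of proteolysis genes, the 3 with the highest mean. Mmp1a, Mmp10, Mmp12 and Timp4, and the cell type markers named because they were at 0 or carried a sum, were chosen after their values were seen; the 3 highest of each marker list are not all named. Part of the genotype label and 1 gene that the rule names are not reported here. PDAC numbers share age and genotype and the metastases are described as matched, so numbers were taken to mark the mouse; deviations of primary 1 and liver metastasis 1 correlated at -0.165. Nothing says that the BC libraries of a group came from separate animals, so p-values measure the spread between libraries. Alternatives were a pseudocount of 0.1, no filter, scaling without haemoglobin or by quantiles, only the groups compared, a replicate block, each library left out, and, chosen after seeing the data, leaving out the 3 libraries with the fewest genes. Fits on fewer libraries reapplied the filter to those libraries.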

Additional observations from a re-analysis of the deposited data

Results flagged for a closer look

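Mmp9 and Timp2 were singled out because both PDAC liver metastases lay above both PDAC primaries while both BC lung metastases lay below both BC primaries. Of all genes tested, 15.4% lay higher without overlap in PDAC liver metastases and 27.0% lower in BC lung metastases. The share that did both was not counted. For Mmp9, PDAC liver metastases were at 57.4 and 541 RPKM, against 17.4 and 0.00902 RPKM in PDAC primaries, and BC lung metastases at 37.6 and 22.1 RPKM, against 41.9 and 69.1 RPKM in BC primaries. The PDAC liver effect minus the BC lung effect was 6.24 on the log2 scale (SE 1.95, limma adjusted p = 0.874). For Timp2, PDAC liver metastases were at 71.8 and 46.4 RPKM, against 20 and 25.2 RPKM in PDAC primaries, and BC lung metastases at 63.1 and 120 RPKM, against 128 and 169 RPKM in BC primaries. The difference of effects was 2.08 (SE 0.95, adjusted p = 0.874). Neither difference of effects passed the test.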

How the results depend on the processing

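No tested member was called in the 6 comparisons as reported. Of the alternative values of single members, 573 kept their direction and their side of the threshold, 28 changed direction and 7 newly passed, all 7 of them without 1 of the PDAC primaries. Mmp14 stayed lower in metastases, within each model and over both, and Mmp9 stayed higher in PDAC metastases than in PDAC primaries, under each alternative run. The libraries compared did not overlap in these genes. Leaving out a library, another pseudocount, no filter or fitting only the groups compared therefore could not change these directions. The cause of the changes below was not tested. Mmp3 in PDAC rests on about 4 reads or fewer per library, in libraries of 21300000 to 65200000 estimated gene reads, against 7030 reads in BC lung metastasis 6, which had 58800000.

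With each library left out in turn, 0 to 2 members were called in the PDAC liver, PDAC lung and PDAC against BC primary comparisons, each 2 being without PDAC primary 1. Genes called were 0 to 1032 for PDAC liver, 0 to 1547 for PDAC lung, 1 to 803 for PDAC against BC primary, 0 to 10 over both models and 0 to 30 for the difference of effects, with each highest count again without PDAC primary 1. The log2 differences that changed direction in this way ranged in BC over -0.59 to 0.63 for Mmp2, -2.55 to 0.31 for Mmp3 and -0.42 to 1.69 for Timp1. In PDAC liver they ranged over -0.20 to 3.18 for Mmp2 and -3.05 to 1.04 for Timp1. Mmp13 ranged there over 0.00 to 0.38. It was 0.00 without liver metastasis 5, the only PDAC library with Mmp13, and that value is counted above as a change of direction. Over both models the differences that changed direction ranged over -0.13 to 0.78 for Mmp2, -0.84 to 0.18 for Mmp3 and -1.27 to 0.35 for Timp1. Timp1 ranged over -2.85 to 0.60 between PDAC and BC primaries. For the difference of effects they ranged over -3.03 to 1.09 for Mmp14, -0.22 to 3.16 for Mmp2, -0.21 to 2.65 for Mmp3 and -3.68 to 0.41 for Timp1.

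With a pseudocount of 0.1, Mmp2 in BC was -0.04, and 0 genes were called in PDAC liver, 270 in PDAC lung and 0 over both models. With no filter on low values, 1 member (Timp3) and 251 genes were called in PDAC lung and 0 genes in PDAC liver, over both models and between primaries. Scaling without haemoglobin gave Mmp2 in BC at -0.37 and Timp2 over both models at 0.00, with 0 genes called in PDAC liver and over both models. Quantile scaling gave Mmp13 in PDAC liver at -0.06 and called 0 genes in PDAC liver, 161 in PDAC lung, 6 over both models and 13 between primaries. The median of all genes in BC was -0.29 as reported, -0.64 without haemoglobin and 0.07 with quantile scaling, and that between primaries -0.31, -0.75 and 0.05. Fitting only the groups compared called 73 genes in BC and 0 in PDAC lung and between primaries. The replicate block, for the pairing of PDAC libraries by number, called 0 genes in PDAC liver, in PDAC lung and over both models, and changed no call of a member. Leaving out PDAC lung metastasis 1, PDAC primary 5 and BC lung metastasis 6, which listed the fewest genes (tried only after the data had been seen), Mmp2 and Timp1 in BC were -0.59 and -0.10, and Timp1 was 0.72 in PDAC liver, 0.31 over both models and 0.82 for the difference of effects. It called 0 genes in PDAC liver and over both models and 72 between primaries, and had no PDAC lung value.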
